A study of Mus musculus with 2 samples.

Results

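The genes described here copy DNA. They comprise 38 genes for origin licensing, the replicative helicase, the replicative polymerases and the sliding clamp with its loader, listed by gene symbol for their roles. All 38 were found among the 19938 genes named on Affymetrix Mouse Gene 1.0 ST arrays, which read a transcript with probes spread over its exons. RNA came from mouse embryonic stem (ES) cells with rtTA, the doxycycline-dependent activator, at the ROSA26 locus and with a transgene for CTCFL-V5-GFP behind a TRE promoter. CTCFL is a zinc finger protein of male germ cells related to CTCF, and its fusion to green fluorescent protein (GFP) and a V5 tag allows expressing cells to be sorted. For the induced array, cells were kept on doxycycline for 3 days and sorted by their GFP. For the non-induced array, cells of the same kind received no doxycycline and were used unsorted. All cells were grown on gelatin with leukemia inhibitory factor. They were drug-selected transgenic cells, and the number of clones behind each array is not given in the sources used here.

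There was 1 array per group, so no value has an error from replicates and no test was made. Doxycycline, sorting and CTCFL differed together and cannot be told apart. Values are log2 signals after robust multi-array averaging (RMA), and each difference is the induced minus the non-induced value. Because the RNA came from bulk cells, fewer cells in S phase and less RNA per cell cannot be told apart either. Levels of different genes come from different probes, so no gene was called higher than another by its level.

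Replication starts in a licensing step. In G1 phase the origin recognition complex (ORC) binds origins and, with CDC6 and CDT1, loads the ring-shaped MCM2-7 helicase around DNA, where it waits inactive. On entry into S phase kinases, CDC45, the GINS complex and MCM10 turn the loaded ring into a working helicase, and geminin keeps CDT1 from loading another. Polymerase alpha with primase then lays down primers, polymerases epsilon and delta extend them on the leading and lagging strand, and the clamp PCNA, opened by replication factor C (RFC), holds the polymerase on DNA. Mouse ES cells have a short G1 phase and spend much of their cycle in S phase.

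On these arrays the 38 genes differed little, and the widest differences were found in the ORC and in single subunits of GINS and RFC. The targeted gene Ctcfl measured 9.44 on the induced and 5.99 on the non-induced array, higher on the array labelled induced. The non-induced value lay below the median of all gene values (6.36), taken as a floor, so the difference of 3.45 depends on a dim signal and was 2.92 with a constant of 32 added. The probes do not separate transgene from endogenous transcript. All 10 ES cell markers, Pou5f1, Nanog and Sox2 among them, were at or above the floor. Their summed linear signal was 22838 on the induced and 22974 on the non-induced array. The brightest, Dppa5a, weighs most in this sum and measured 13.16 induced and 13.02 non-induced. Of the 10 markers 7 were below 0 in difference and 3 above, with a median of -0.07. Below 0 were 53.4% of all genes at the floor and 62.1% of those at the 75th percentile of all gene values. Of 12 fibroblast and mesenchyme markers 10 were above 0 in difference, 8 were at the floor, and Postn, Dcn, Lum and Pdgfrb were below it, with none at 0. Their summed linear signal was 3988 induced and 3530 non-induced, and their part in the replication gene differences was not tested.

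Of the 38 genes 24 had a difference below 0 and 14 above 0. All 38 lay above the floor on these arrays, and also above the 75th percentile of all gene values (7.64) in at least 1 array. Their median difference was -0.17, with a lowest value of -0.93 and a highest of 0.28, and the median level was 9.16 on the induced and 9.40 on the non-induced array. None was lower by log2 1 or more and none higher, against 1.79% and 0.477% of the 10697 genes at the floor. With a size of log2 0.58, 6 were lower, Orc2, Orc4, Orc5, Gins1, Gins3 and Rfc4, and none higher, against 8.45% and 5.31% of these genes. Only Orc4 and Rfc4 of the 6 were lower by this size under each of 5 other scalings, and with a second quantile normalization the count was 2. A difference below 0 was found for 63.2% of the 38 genes and for 53.4% of the genes at the floor, whose median difference was -0.03. Among the 5423 genes at the 75th percentile, 62.1% were below 0, 10.9% were lower by 0.58 or more and the median difference was -0.09. The sign count of the replication genes was thus close to that of genes of like brightness.

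**Figure D1:**
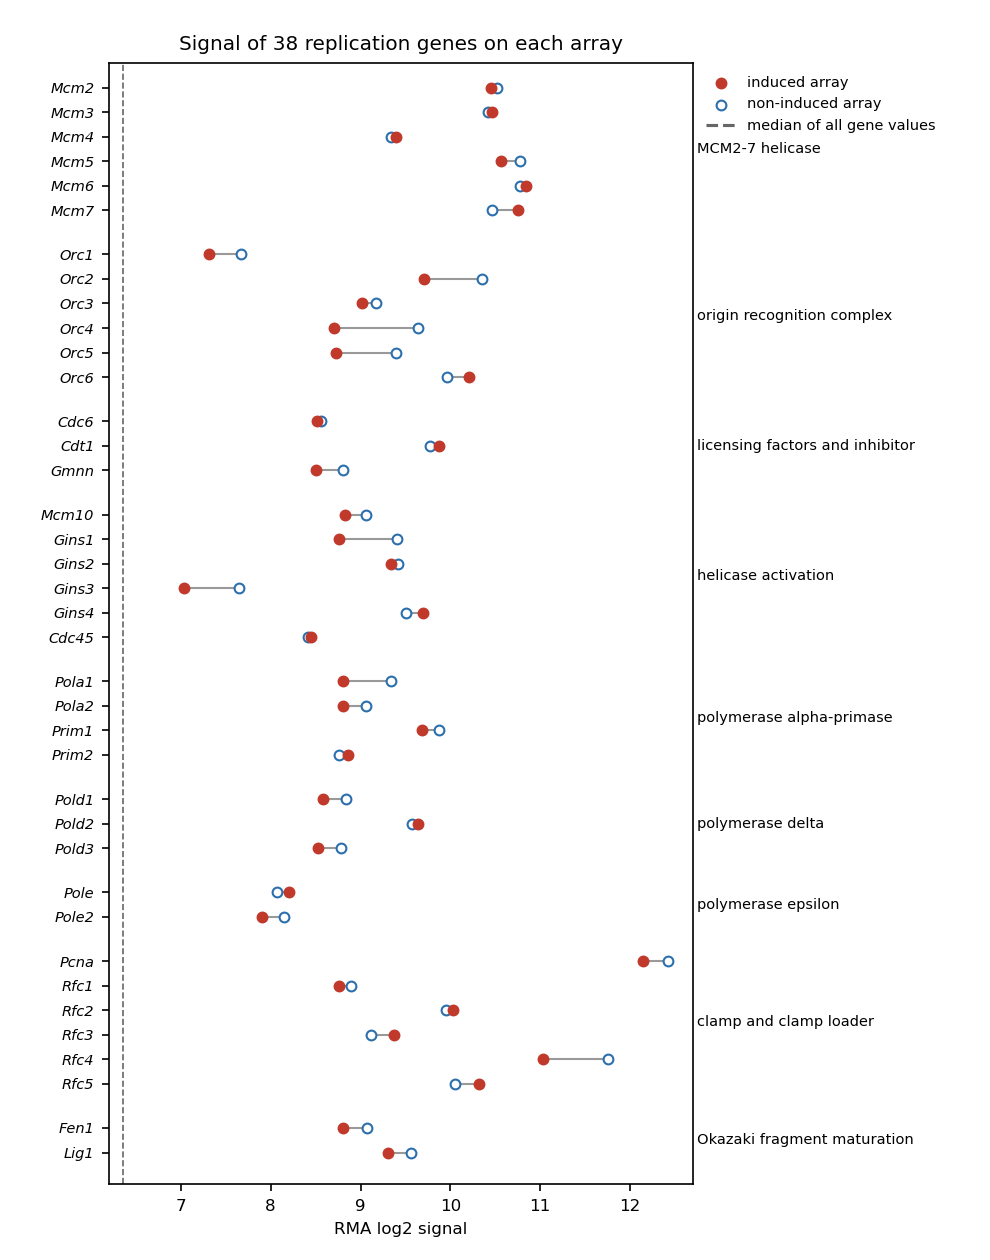
RMA log2 signal of the 38 replication genes, grouped by role, on the induced array (filled red points) and the non-induced array (open blue points), 1 array each, with a dashed line at the floor of 6.36. The points of most genes lie close together, and the widest gaps belong to Orc4, Rfc4, Orc5, Gins1, Orc2 and Gins3, all lower on the induced array.

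The spread was small for most genes. The differences of 29 of the 38 genes were within 0.3 of 0, and those of 10 within 0.1. The middle 50% of the genes at the floor ran from -0.28 to 0.22, and 24 replication genes lay inside it, 10 below it and 4 above it. For scale, 436 genes at the floor with a pair of probe sets gave differences whose median gap between the probe sets was 0.15, and 90% of the gaps were below 0.67. This gap is no replicate error, but a value of 0.6 for a gene read by 1 probe set is no wider than some gaps between probe sets of 1 gene.

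The start regions of these genes are shown because many carry letters of the E2F motif, the site through which E2F factors and pocket proteins time S-phase genes. RefSeq sequence (build GRCm38.p6), from 250 bases before to 50 bases after a start, was held for 30 of the 38 genes. The motif was searched as TTTCCCGC, TTTCGCGC, TTTGCCGC and TTTGGCGC on both strands, and matches are in capitals. Some genes had several starts, and a gene was counted if any of them had a match. For Mcm7 (2 starts) and Orc4 (3 starts) the first listed start is given. The second Mcm7 start and all 3 Orc4 starts had no match. Shown 5′ to 3′ on the strand of the gene are Mcm6, Mcm7 and Rfc3 with several matches, Orc1 and Gins3 with 1 match near the start, and Orc4, the gene with the widest difference, without a match.
Mcm6 (chr1:128359656-128359955, minus strand): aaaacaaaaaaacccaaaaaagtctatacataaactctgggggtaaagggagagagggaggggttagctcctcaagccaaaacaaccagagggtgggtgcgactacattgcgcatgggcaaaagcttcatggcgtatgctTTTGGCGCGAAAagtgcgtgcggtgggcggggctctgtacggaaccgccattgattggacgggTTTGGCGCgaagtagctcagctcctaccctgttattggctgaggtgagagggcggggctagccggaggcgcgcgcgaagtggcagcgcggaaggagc
Mcm7 (chr5:138171834-138172133, minus strand): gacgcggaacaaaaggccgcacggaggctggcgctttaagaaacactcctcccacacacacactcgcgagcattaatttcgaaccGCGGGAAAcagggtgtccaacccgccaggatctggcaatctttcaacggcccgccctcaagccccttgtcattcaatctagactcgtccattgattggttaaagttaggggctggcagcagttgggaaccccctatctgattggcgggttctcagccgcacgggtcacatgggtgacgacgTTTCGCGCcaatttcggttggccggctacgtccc
Rfc3 (chr5:151651159-151651458, minus strand): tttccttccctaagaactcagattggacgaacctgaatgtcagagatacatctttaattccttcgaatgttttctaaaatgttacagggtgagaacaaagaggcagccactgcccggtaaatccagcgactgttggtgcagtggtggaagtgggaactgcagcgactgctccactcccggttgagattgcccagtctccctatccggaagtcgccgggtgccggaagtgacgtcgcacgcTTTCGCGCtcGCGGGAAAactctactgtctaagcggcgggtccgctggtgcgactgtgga
Orc1 (chr4:108579204-108579503, plus strand): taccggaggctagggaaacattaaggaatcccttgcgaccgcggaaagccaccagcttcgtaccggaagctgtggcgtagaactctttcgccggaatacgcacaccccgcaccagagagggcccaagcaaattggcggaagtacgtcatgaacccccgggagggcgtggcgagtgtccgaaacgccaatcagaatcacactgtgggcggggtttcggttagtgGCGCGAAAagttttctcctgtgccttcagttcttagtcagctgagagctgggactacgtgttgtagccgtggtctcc
Gins3 (chr8:95633309-95633608, plus strand): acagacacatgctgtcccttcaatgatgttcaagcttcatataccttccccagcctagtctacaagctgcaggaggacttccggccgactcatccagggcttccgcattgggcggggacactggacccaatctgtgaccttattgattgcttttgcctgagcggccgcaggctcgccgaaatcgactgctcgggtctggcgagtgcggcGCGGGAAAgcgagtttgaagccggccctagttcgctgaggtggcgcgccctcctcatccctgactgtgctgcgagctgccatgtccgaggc
Orc4 (chr2:48950032-48950331, minus strand): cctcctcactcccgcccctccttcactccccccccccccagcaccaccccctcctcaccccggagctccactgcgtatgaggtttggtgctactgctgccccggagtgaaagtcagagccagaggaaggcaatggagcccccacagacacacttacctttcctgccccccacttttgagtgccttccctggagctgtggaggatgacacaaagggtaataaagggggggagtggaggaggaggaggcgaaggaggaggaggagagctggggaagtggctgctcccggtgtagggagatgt

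A match was present in 15 of the 30 genes, against 432 of 8576 genes at the floor with a start region (5.04%) and 2.61% of all 27025 genes. The 15 were Mcm3, Mcm5, Mcm6, Mcm7, Orc1, Orc3, Cdc6, Cdt1, Gins3, Pola1, Pold1, Pold3, Pole2, Rfc3 and Lig1. Of their 21 matches 14 were within 60 bases of the start. In Mcm5 and Mcm6 a pair of matches overlapped, since a stretch such as TTTGGCGCGAAA reads as a match on each strand. Whether the matches relate to the differences was not tested. Other forms of the motif were not searched, and 8 genes had no start region. The 15 genes with a match had a median difference of -0.22, from -0.61 to 0.28, with 10 below 0, and the 15 without had a median of -0.23, from -0.93 to 0.26, with 11 below 0. The CCAAT box (CCAAT, both strands) was present in 18 of the 30 genes, against 43.0% of those at the floor. The letters AGNNGGCNC of the core CTCF motif, on both strands, were present in 6 of the 30 genes (20.0%), against 31.9%. A match is a description of letters and not a bound site.

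The ORC, which marks origins and starts licensing, had the lowest median of the 9 role groups, at -0.49. Of its 6 subunits 5 were below 0 (83.3%, against 62.1% of the genes at the 75th percentile). The groups hold only 2 to 6 genes, and the ORC was singled out by these same values. Orc4, a subunit of the ring that encircles origin DNA, measured 8.70 on the induced and 9.64 on the non-induced array, 1.91-fold lower. This difference of -0.93 was the lowest of the 38, the only one below the 5th percentile (-0.72) of the genes at the floor, and 2.20% of these genes were lower still. Orc5, the neighbouring ATPase-fold subunit, measured 8.73 induced and 9.39 non-induced, 1.58-fold lower, with 6.17% of the genes lower. Orc2, which pairs with Orc3 in the complex, measured 9.71 induced and 10.35 non-induced, 1.56-fold lower, with 6.68% of the genes lower. These 3 subunits thus lay low in the range of all genes without being at its end. Orc1, the ATPase subunit whose amount changes over the cell cycle in mammals, measured 7.32 induced and 7.67 non-induced. Orc3 measured 9.02 induced and 9.17 non-induced, a difference of -0.15. Orc6, which is loosely attached to the complex and needed to load the helicase, went the other way, with 10.20 on the induced and 9.97 on the non-induced array. The subunits therefore spanned 1.17. Without the ORC the other 32 genes had a median of -0.10.

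The licensing factors were close to 0, with a median of -0.04 over 3 genes. Cdc6, the ATPase that joins ORC at the origin, measured 8.52 induced and 8.56 non-induced. Cdt1, which brings the helicase to ORC, measured 9.88 induced and 9.77 non-induced. Geminin (Gmnn), the inhibitor that binds CDT1 outside G1 phase, measured 8.50 induced and 8.80 non-induced, a difference of -0.30. Cdt1 and its inhibitor thus had opposite signs, each within 0.31 of 0.

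The 6 subunits of the MCM2-7 helicase, which are loaded as rings in equal numbers, stayed together, with a median of 0.05 and a span of 0.50. Mcm7 had the highest difference of all 38 genes, with 10.75 on the induced and 10.47 on the non-induced array, 1.22-fold higher, and 80.4% of the genes at the floor were lower than this. Mcm5, which forms the gate through which DNA enters the ring together with Mcm2, had the lowest of the 6, with 10.56 induced and 10.78 non-induced. The others were within 0.08 of 0. Mcm2 measured 10.45 induced and 10.52 non-induced. Mcm3 was at 10.46 induced and 10.42 non-induced. Mcm4, part of the catalytic core with Mcm6 and Mcm7, was at 9.40 induced and 9.34 non-induced. Mcm6 was at 10.84 induced and 10.77 non-induced. The median of the ORC minus that of the helicase was -0.54, although both act in the same loading step.

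**Figure D2:**
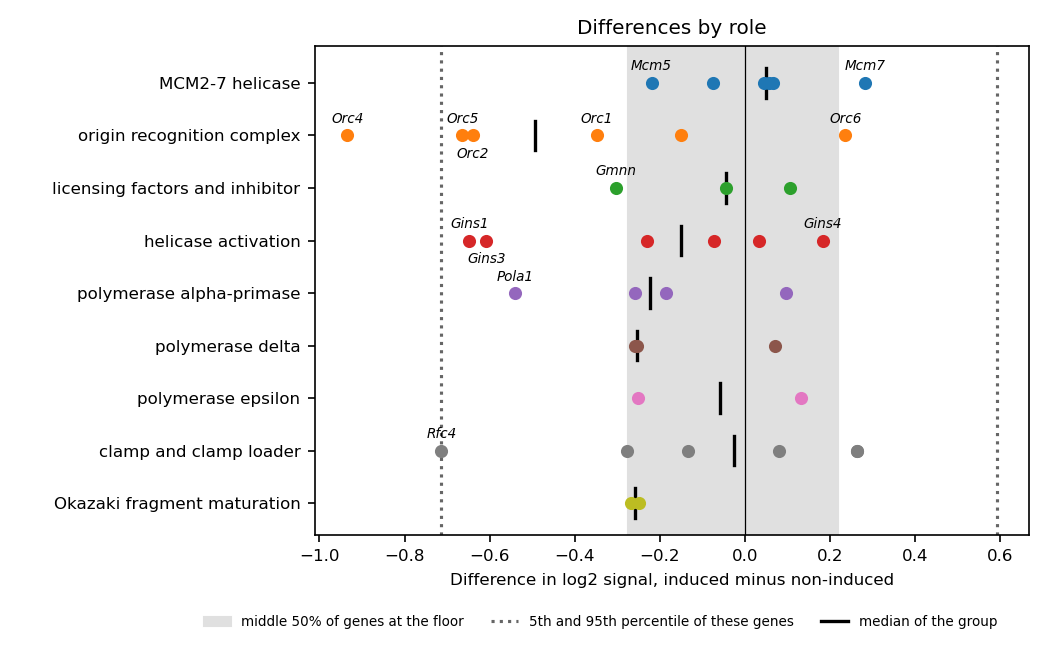
Difference in log2 signal (induced minus non-induced) of each of the 38 genes by role, 1 point per gene, with the median of each group as a bar. Grey shading marks the middle 50% of the genes at the floor (-0.28 to 0.22) and dotted lines their 5th and 95th percentile (-0.72 and 0.59). ORC points reach farthest to the left, and those of the MCM2-7 helicase lie around 0.

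The factors that activate the helicase had a median of -0.15, and the 4 GINS subunits, which form a complex with 1 copy of each, were spread over 0.83. Gins1 measured 8.76 on the induced and 9.41 on the non-induced array, 1.57-fold lower, with 6.53% of the genes at the floor lower. Gins3 measured 7.03 induced and 7.64 non-induced, 1.52-fold lower, with 7.63% of the genes lower. Gins4 was above 0, with 9.69 induced and 9.51 non-induced. Gins2 was near 0, with 9.34 induced and 9.42 non-induced. Cdc45, which joins GINS and MCM2-7 in the active helicase, measured 8.44 induced and 8.41 non-induced. Mcm10, which is needed to start unwinding and is no part of the ring, measured 8.83 induced and 9.06 non-induced. The 3 parts of the active helicase thus had medians or values of 0.05 (MCM2-7), -0.34 (GINS) and 0.03 (Cdc45).

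Of the 9 polymerase genes 6 were below 0 (66.7%, against 62.1% of the genes at the 75th percentile), and their median was -0.25. In the complex that makes primers, the catalytic subunit Pola1, an X-linked gene, measured 8.80 on the induced and 9.34 on the non-induced array, 1.45-fold lower. Pola2, its accessory subunit, measured 8.80 induced and 9.06 non-induced. Prim1, the primase that joins the first ribonucleotides, measured 9.69 induced and 9.87 non-induced. The large primase subunit Prim2 was near 0, with 8.86 induced and 8.76 non-induced.
In the lagging strand polymerase, the catalytic subunit Pold1 measured 8.58 induced and 8.84 non-induced, and the PCNA-binding subunit Pold3 measured 8.53 induced and 8.78 non-induced. The accessory subunit Pold2 measured 9.64 induced and 9.57 non-induced, and its sign, like that of Prim2, changed with the scaling. For the leading strand polymerase, the catalytic subunit Pole measured 8.21 induced and 8.07 non-induced, and its accessory subunit Pole2 measured 7.90 induced and 8.15 non-induced. In the deposited values no polymerase gene was lower by 0.58, but Pola1 was at -0.64 with each array centred on its median over all genes.

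The clamp and its loader had a median of -0.03 over 6 genes, 3 of them below 0. Pcna, the ring that tethers polymerases and recruits repair and chromatin factors, measured 12.15 on the induced and 12.43 on the non-induced array. Both of its probe sets gave -0.28. Their levels were also nearly equal (12.149 and 12.147 induced, 12.426 and 12.424 non-induced). Whether the Pcna probe sets are separate measurements was not tested. Rfc4, a small subunit of the loader, measured 11.04 induced and 11.75 non-induced, 1.64-fold lower, with 5.02% of the genes at the floor lower. The other 4 loader subunits did not share this. Rfc3 measured 9.38 induced and 9.11 non-induced, and Rfc5 measured 10.32 induced and 10.05 non-induced. Rfc2 measured 10.03 induced and 9.95 non-induced. The large subunit Rfc1 measured 8.76 induced and 8.90 non-induced. Rfc2 to Rfc5 also serve in the alternative loaders of checkpoint and cohesion factors, whereas Rfc1 is particular to the PCNA loader. The 5 loader genes spanned 0.98 with a median of 0.08. In the joining of Okazaki fragments, the flap nuclease Fen1 measured 8.80 induced and 9.07 non-induced, and the ligase Lig1 measured 9.31 induced and 9.56 non-induced, a difference of -0.27 and -0.25.

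**Figure D3:**
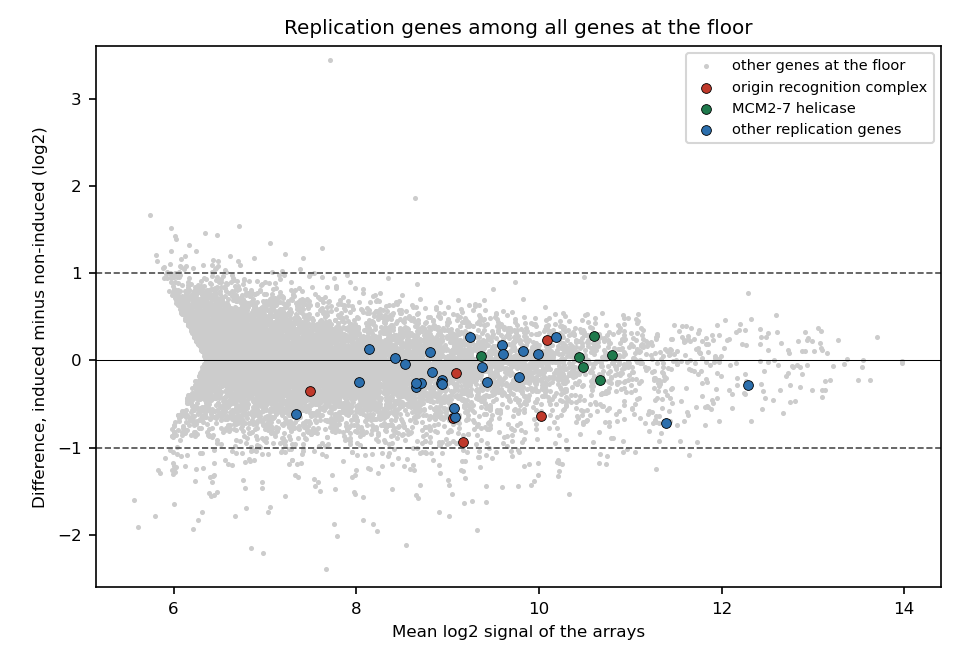
Mean log2 signal of both arrays (horizontal) against the difference in log2 signal, induced minus non-induced (vertical), for the genes at the floor (grey), the ORC (red), the MCM2-7 helicase (green) and the other replication genes (blue), with dashed lines at log2 1 in each direction. The replication genes lie within the grey cloud and inside the dashed lines, and the lowest is Orc4 at -0.93.

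The order of the replication genes by level was nearly the same on both arrays. Over the 38 genes the induced and non-induced values had a Pearson r of 0.957 and a Spearman rho of 0.925, and over all 19938 genes r was 0.976. The difference was little related to the mean level within the 38 genes (r 0.16, rho 0.25), and for all genes at the floor the relation had the opposite sign (r -0.17, rho -0.22). These are descriptions across genes that share both arrays, and the high r of the levels is not particular to the 38 genes.

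Further genes around the fork were read from 7 lists chosen for their roles, with earlier results of these data known. Their counts are therefore descriptions only. Of the listed genes 103 were at the floor. Of these 73 (70.9%) were below 0, against 53.4% of all genes at the floor and 62.1% of those at the 75th percentile, and the median was -0.14. By log2 1 or more 2 were lower, against 1.79%, and by 0.58 or more 12 were lower, against 8.45% at the floor and 10.9% at the 75th percentile. The lists are short, and their counts below 0 stand beside the same shares. Ccne2, the cyclin that drives entry into S phase with CDK2, had the widest difference, with 8.30 on the induced and 9.73 on the non-induced array, 2.69-fold lower. In the same list of licensing control (13 genes, median -0.19), the next were Fbxo5, an inhibitor of the ligase that removes geminin, with 9.44 induced and 10.01 non-induced, and Cul4b, a scaffold of the ligase that degrades CDT1, with 10.09 induced and 10.51 non-induced.

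Among 33 further fork and initiation genes 22 were below 0, and the median was -0.14. Lower by 0.58 were 6, against 8.45% of all genes at the floor and 10.9% of those at the 75th percentile. Rpa3, the small subunit of the single-strand binding protein, measured 9.61 induced and 10.78 non-induced. The second probe set annotated to Rpa3 measured 7.95 induced and 9.04 non-induced. Rif1, which restrains origin firing, measured 9.33 induced and 10.13 non-induced. Atad5, which takes PCNA off DNA, measured 6.38 induced and 7.12 non-induced. In the deposited values Rif1 and Atad5 had differences below those of all 38 genes but Orc4, and Rpa3 was below Orc4 as well. For Atad5 this rank depends on a dim signal, since its induced value was near the floor. With a constant of 32 added its difference of -0.75 became -0.57, against -0.70 for Rfc4. Fork checkpoint genes (10 genes, median -0.17) were led by Etaa1, an activator of ATR, at 7.20 induced and 7.97 non-induced, and Atr itself, the kinase of stalled forks, at 7.37 induced and 8.06 non-induced. Hus1, of the checkpoint clamp, was at 7.76 induced and 8.28 non-induced.

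Genes of nucleotide supply had 10 of 12 below 0 and a median of -0.25. Tyms, which makes thymidylate, measured 8.79 induced and 9.43 non-induced, and Dtymk, which acts on its product, 10.60 induced and 11.17 non-induced. Rrm2, a subunit of ribonucleotide reductase, was the other way, at 10.86 induced and 10.37 non-induced. The E2F and pocket protein list (16 genes at the floor, 9 below 0) had a median of -0.02. Higher by 0.58 were 2 of its genes, against 5.31% of all genes at the floor. In the deposited values these 2 were E2f5 and Lin37. E2f5, a repressive E2F, measured 7.04 induced and 6.35 non-induced. Lin37, a subunit of the cell cycle repressor complex DREAM, measured 7.78 induced and 7.16 non-induced. With a constant of 32 added both were below this size, at 0.52 and 0.53. Lin52, of the same complex, measured 7.70 induced and 7.21 non-induced. Other genes of the list, named after their values were seen, were on the other side, with differences of -0.48 for E2f4, -0.48 for Tfdp1 and -0.40 for Lin54, which also belong to DREAM. Chromatin assembly genes (9 of 11 below 0) had a median of -0.09, and the histone chaperone Asf1a measured 7.83 induced and 8.45 non-induced. Translesion polymerase genes (7 of 8 below 0) had a median of -0.31, which was -0.19 without the floor, and Polq measured 6.08 induced and 6.74 non-induced. The induced value of Polq lay below the floor. Its difference of -0.65 was -0.47 with a constant of 32 added. For comparison, 10 of 19 mitosis genes were below 0 with a median of -0.02, and the widest were Nusap1 with 8.30 induced and 8.95 non-induced and Ttk with 8.45 induced and 9.08 non-induced.

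**Figure D4:**
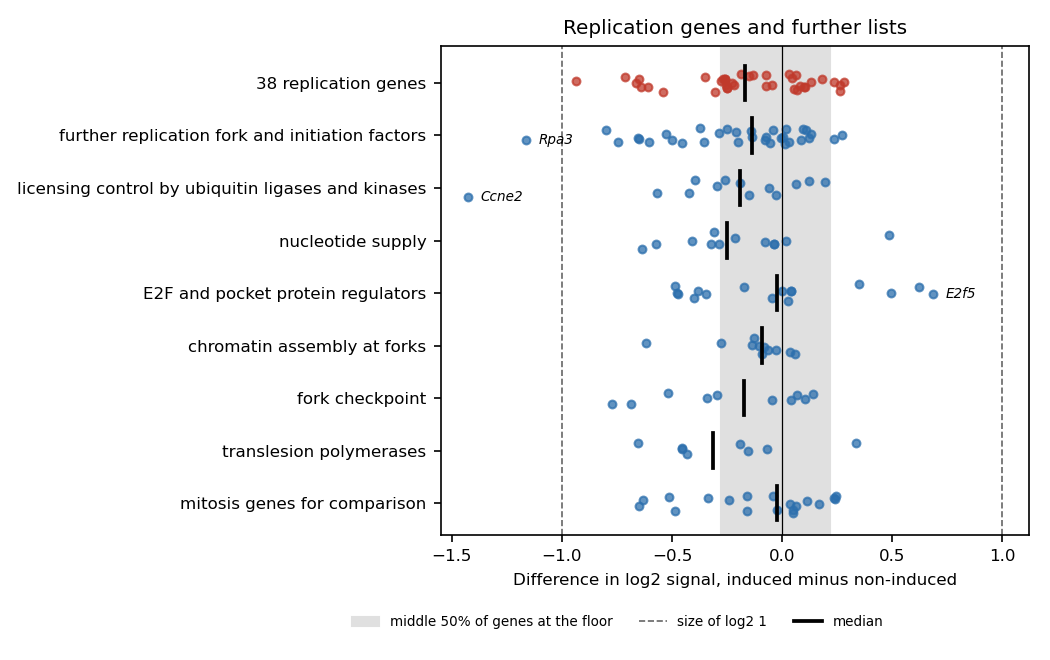
Difference in log2 signal (induced minus non-induced) for the 38 replication genes (red) and 8 further lists (blue), 1 point per gene at the floor, with the median of each list as a bar, shading for the middle 50% of the genes at the floor and dashed lines at log2 1. Only Ccne2 and Rpa3 lie beyond the lower line, and no gene of these lists lies beyond the upper one.

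How the arrays were scaled set the sign of many of these small differences. Under 5 other scalings and the deposited values, 20 of the 38 genes were below 0 each time, 7 were above 0 each time (Cdt1, Gins4, Mcm7, Orc6, Pole, Rfc3 and Rfc5) and 11 changed sign. Orc1 to Orc5, Gins1, Gins3, Rfc4 and Pola1 were among the 20, and Mcm2, Mcm3, Mcm4, Mcm6, Cdc6 and Cdc45 among the 11. Orc3 kept its sign only narrowly, at -0.007 after a second quantile normalization. So did Cdt1, at 0.006 with each array centred on its median over all genes. The median of the MCM2-7 helicase lay between -0.05 and 0.15 and so took both signs, as did those of the licensing factors, polymerase epsilon and the clamp with its loader, and that of the ORC lay between -0.59 and -0.41. The ORC median minus the helicase median was between -0.56 and -0.51 in each. Centring shifts all genes of an array by the same amount and so cannot change this value. It was -0.54 as deposited and with either centring, so only the other scalings could have moved it.

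**Figure D5:**
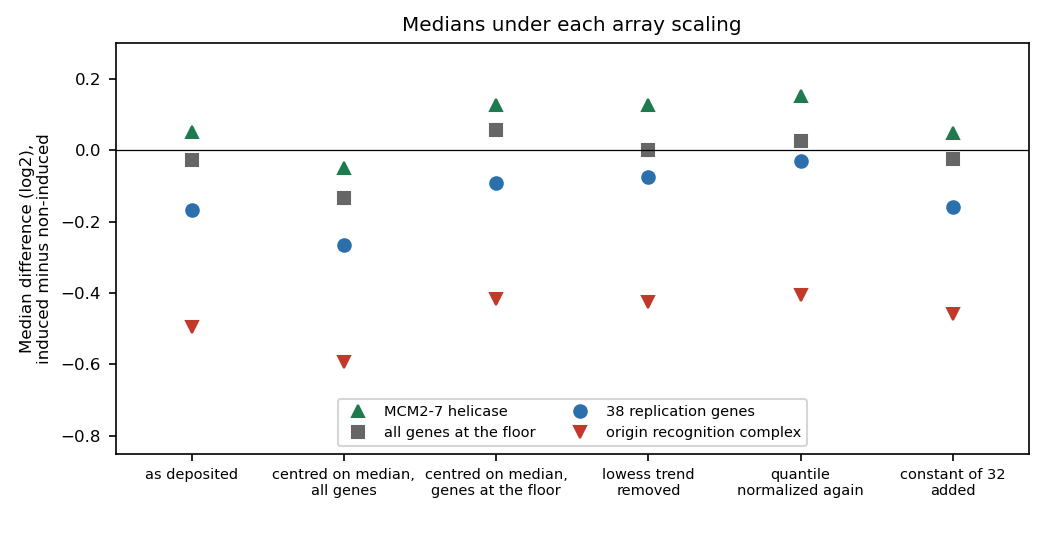
Median difference in log2 signal (induced minus non-induced) under the deposited scaling and 5 others for the MCM2-7 helicase (triangles), all genes at the floor (squares), the 38 replication genes (circles) and the ORC (inverted triangles). The whole set of medians shifts up or down with the scaling, and the ORC is lowest in each, between -0.59 and -0.41. Centring shifts all genes of an array alike and cannot change the distance between the ORC and the helicase.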

How the data were processed

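Total RNA (300 ng) was labelled with biotin for each of 2 arrays; the labels name cRNA and the methods single-stranded DNA. The authors deposited log2 values, 1 per probe set and array, computed with RMA, that is background correction, quantile normalization and summary over probes. Its software version and the array's genome build were not given in the sources used here. RMA compresses fold differences of dim genes. Precision is limited by having 1 array in each group.

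Of 35557 probe sets, 21789 had 1 symbol in the platform annotation, 1621 several and 12147 none. Of the 21789, 21698 were matched by identifier to RefSeq (GRCm38.p6) for current symbols, which gave 19938 genes. For 999 genes with several probe sets, the one with the highest mean was used. Sizes of log2 1 and 0.58 were counted where the higher value reached a floor set at the median over both arrays and all genes (6.36). Percentages of lower genes refer to genes at the floor. The text names all 38 genes, Ctcfl, and up to 3 genes per further list with the widest difference. Outside this rule it names some markers, E2f4, Tfdp1, Lin54 and genes whose 2 probe sets differed. The genes and lists were chosen with earlier results of these data known. Some genes of the further and marker lists, Ssrp1, Impdh2, Ccnb1, Poln and T among them, were not analysed here. Alternatives were other scalings, floors, sizes, probe set rules and start windows. Counting steps were tested on simulated data. Scripts ran in Python 3.11.15 with pandas 2.3.3, numpy 2.4.6, statsmodels 0.14.6, scipy 1.17.1 and, for plots, matplotlib 3.10.9.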

Additional observations from a re-analysis of the deposited data

How the results depend on the processing

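With 1 array per group no replicate could be left out. No paired analysis was possible because each group has 1 array and no replicate numbers. The count of replication genes lower by log2 1 or more, 0 as deposited, became 1 (Orc4) after centring each array on its median over all genes and 6 with a size of 0.58. The median of the 38 genes, -0.17 as deposited, became -0.031 after a second quantile normalization, and was -0.27 with centring over all genes, -0.09 with centring over genes at the floor, -0.08 with the trend on level removed by lowess and -0.16 with a constant of 32 added. Relative to the median of the genes at the floor it was between -0.15 and -0.06 in each setting. Centring over all genes moved the median of the genes at the floor to -0.13, against -0.03 as deposited. The count of genes below 0 lay between 20 and 31, and that of genes lower by 0.58 between 2 and 7. With 100 in place of 250 bases before the start, the core CTCF letters were found in 3 genes in place of 6. All other main values of the alternatives moved by less than 0.1 or, for counts, by less than 1.5 times. Of the values of single genes and groups under these alternatives, 554 moved by less than these limits and 86 by more. The causes were not tested.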

Other observations

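Some genes around the fork had 2 probe sets in the platform annotation that did not give the same difference. Whether the sets of a pair read the same locus was not tested. Top2a, the topoisomerase that untangles sister chromatids, measured 9.91 on the induced and 10.15 on the non-induced array by its brighter probe set, a difference of -0.24, and 6.87 induced and 8.17 non-induced by the other, a difference of -1.30. E2f3, an activating E2F, differed by -0.34 by the brighter probe set (6.93 induced, 7.28 non-induced) and by -0.93 by the other (6.26 induced, 7.19 non-induced). Slbp, which binds the stem-loop of histone mRNAs, differed by -0.08 and -0.49. Pclaf, a PCNA-associated factor, took both signs, with 0.13 by the brighter set and -0.23 by the other.

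The 38 replication genes lay on 14 chromosomes of the RefSeq annotation, with 7 on chromosome 5 and 6 on chromosome 8. Of the loader genes, Rfc1, Rfc2, Rfc3 and Rfc5 were on chromosome 5, with differences of -0.13, 0.08, 0.26 and 0.26. Rfc4, at -0.71, was on chromosome 16, where Mcm4 and Cdc45 were at 0.06 and 0.03. Orc4, Gins1, Pcna and Mcm10 were on chromosome 2, with differences of -0.93, -0.65, -0.28 and -0.23. This chromosome was named after its values were seen, and a link of position to difference was not tested.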
